A study of Mus musculus with 51 samples.

Results

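The proteasome genes of the mouse were followed across 6 tissues after gastric bypass surgery. They were taken as every gene whose symbol begins with Psma, Psmb, Psmc, Psmd, Psme, Psmf or Psmg and a digit. Of 14606 genes measured in any tissue, 48 met this rule, and 44 of them were measured in all 6 tissues. The numbers were 46 in duodenum, 46 in jejunum, 47 in ileum, 45 in liver, 47 in white adipose tissue (WAT) and 47 in muscle. Psmb5, Psmb8 and Psmg3 were not in the liver table, Psmg3 was not in those of duodenum and jejunum, and Psma8 was only in that of liver. Each table holds only genes that reached 1 CPM (a read count scaled to the total of its library) in as many libraries as the smaller group has, so genes under that level were not analysed here.

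The study sequenced messenger RNA of diet-induced obese C57Bl6 males. Tissues were taken 9 weeks after a sham procedure or after bypass surgery of the Roux-en-Y type (RYGB); the sources used here do not give the age of the mice. RYGB joins a small stomach pouch to the jejunum, so that food no longer passes through the duodenum. All mice received an elemental liquid diet after the operation and were returned by steps to a high-fat diet. Food was restricted in the sham group so that its weight matched that of the RYGB group. All were killed at 10 in the morning after an overnight fast. The effect of the operation and that of food restriction in the sham mice cannot be told apart. Duodenum, jejunum and WAT each had 5 sham and 4 RYGB libraries, ileum 5 and 2, liver 4 and 5, and skeletal muscle 4 and 4. They came from 5 sham and 5 RYGB animals, so that tissues share animals. The gut was sampled by scraping its villi in cold EDTA, and the sources used here do not say from which limb the jejunal villi came.

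The proteasome degrades proteins that carry ubiquitin chains. Its 20S core is a barrel of rings formed by the alpha subunits (Psma genes) and beta subunits (Psmb genes), and Psmb5, Psmb6 and Psmb7 encode the catalytic beta subunits. In cells exposed to interferon, and in many immune cells, Psmb8, Psmb10 and Psmb9 encode catalytic subunits that replace them and form the immunoproteasome, which makes peptides for MHC class I. The 19S regulator binds and unfolds substrates with a base of ATPases (Psmc genes) and a lid (most Psmd genes); Psme1 and Psme2 encode the PA28 cap, Psme3 and Psme4 encode other caps, and Psmg genes encode chaperones that build the core. When the proteasome falls short, the transcription factor Nfe2l1 is known to raise the transcription of its subunit genes.

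All values were CPM, and differences between groups were taken on the scale of log2(CPM + 1) and called at an adjusted p below 0.05 (limma, adjusted over all genes of the tissue). Depth is unknown for most libraries. In 5 of the 9 liver libraries (sham 1 and 2, RYGB 2, 3 and 4) only 8 to 10 of the 20 possible CPM values up to 2 occurred, against all 20 in the other 4, so those 5 libraries have coarser steps. Pancreatic acinar transcripts made up 6.1%, 9.04% and 6.22% of CPM in duodenum sham 1 to 3 and 1.55% in RYGB 2; the remaining duodenal libraries held 0.0843% or less. In WAT, RYGB 3 and RYGB 4 stood apart by leukocyte transcripts: the pan-leukocyte gene Ptprc was at 101.7 and 274.1 CPM there and between 17.9 and 57.6 in the other 7. In muscle, 1 label field of the RYGB libraries says sham, while their titles and surgery labels say RYGB; the titles were followed. Adipocyte and myofibre markers stood where the labels put them, with sums of 25317.3 to 64978.3 CPM in WAT and 69639.4 to 160790.7 CPM in muscle. Summed enterocyte markers overlapped between duodenum, jejunum and ileum, so they do not tell the gut segments apart.

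In sham mice, muscle carried the most proteasome transcript. The summed level of the measured proteasome genes was 5211 ± 113 CPM in muscle (SD, n = 4), 2937 ± 109 in WAT (n = 5), 2261 ± 730 in liver (n = 4), 2236 ± 437 in duodenum (n = 5), 2210 ± 723 in ileum (n = 5) and 1877 ± 40.7 in jejunum (n = 5). All muscle values lay above those of the other tissues, whose ranges overlapped in part. Between genes, levels were compared as CPM per kilobase of exon. On that scale the highest sham mean of each tissue was that of Psme4 (127) in muscle, Psmc6 (91.3) in liver, the alpha subunit Psma6 (87.5) in WAT, the PA28 gene Psme2 (77.1) in jejunum and (74.4) in duodenum, and Psma6 (62.3) in ileum. The immunoproteasome gene Psmb8 was at 26.2 CPM per kilobase of exon in duodenum, 14.7 in jejunum, 13.3 in ileum and 12 in WAT, but at 0.880 in muscle. The lowest member of muscle was Psmb9, at 0.266 CPM per kilobase of exon, and that of WAT was the assembly chaperone Psmg3, at 0.788.

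Between RYGB and sham mice the proteasome genes differed by tissue. In WAT, 31 of the 47 measured members rose and 0 fell, where 14.3% of all WAT genes rose and 26.3% fell. In jejunum 5 of 46 rose and 0 fell, where 6.32% of all genes rose and 6.29% fell. In duodenum, ileum, liver and muscle limma called 0 members; at an unadjusted p below 0.05 there were 7, 1, 20 and 2 members, where 22.7%, 3.64%, 33.8% and 7% of all genes lay. In WAT 35 members lay below it, where 50.8% of all genes did. The share of all genes called higher and lower was 0.128% and 0.22% in duodenum, 0% and 0% in ileum, 2.03% and 2.6% in liver, and 0% and 0% in muscle. Every RYGB library stood above every sham library in 21 members in WAT (11.7% of all genes), 7 in jejunum (7.53%), 1 in duodenum (5.88%), 1 in liver (4.34%), 0 in ileum (3.15%) and 0 in muscle (1.91%). Every RYGB library stood below every sham library in 3 members in muscle (1.96%), and in 0 members in WAT (22% of all genes), jejunum (6.75%), duodenum (1.69%), liver (8.01%) and ileum (4.94%).

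**Figure D1:**
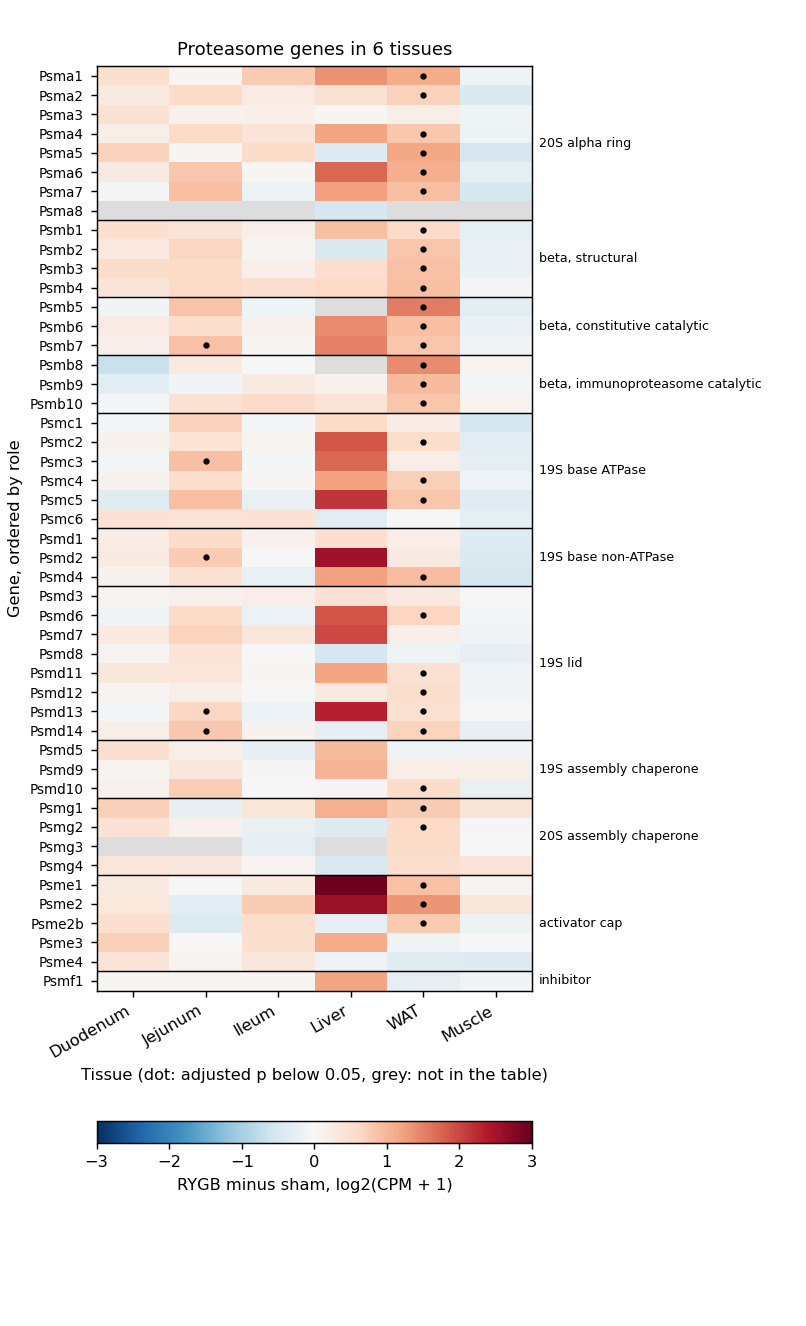
Difference between RYGB and sham in log2(CPM + 1) for each of the 48 proteasome genes (rows, grouped by role) in 6 tissues (columns); a dot marks an adjusted p below 0.05 and grey a gene that is not in that table. The WAT column holds 31 dots and the jejunum column 5, and the darkest cells are in liver, where none carries a dot.

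In WAT the summed level of the members was 2939.2, 2774.4, 3006.0, 2904.6 and 3059.5 CPM in sham 1 to 5, and 4338.6, 5416.5, 3143.7 and 4514.3 in RYGB 1 to 4. Every RYGB library stood above every sham library, with RYGB 3 closest to them. In jejunum the sham values lay between 1828.6 and 1938.4 CPM, and the RYGB values were 2626.8, 1767.3, 2922.3 and 2448.9, so that RYGB 2 fell below all sham libraries and the other 3 above. In muscle the sham values lay between 5095.0 and 5357.7 CPM and the RYGB values were 4471.5, 6237.2, 3600.0 and 3999.8, with RYGB 2 above and the other 3 below all sham libraries. The library RYGB 2 of jejunum, WAT and muscle came from the same animal, which was lowest of the RYGB group in jejunum and highest in WAT and muscle. In bulk tissue, fewer cells of a type and less RNA per cell cannot be told apart.

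**Figure D2:**
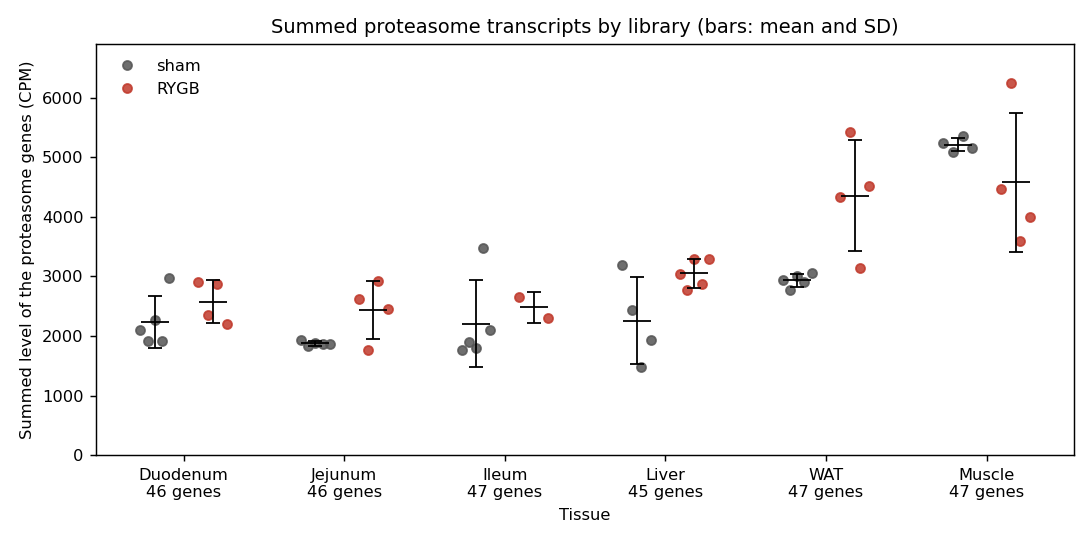
Summed CPM of the proteasome genes (vertical axis) in each library of 6 tissues, with sham in grey and RYGB in red; bars give the mean and SD. Sham and RYGB libraries do not overlap in WAT and overlap in the other tissues.

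The rise in WAT took in nearly the whole 20S core. Of its 17 subunit genes 16 rose, with a median difference of 0.89 on the log2 scale, against -0.16 over all WAT genes; Psma3 was the exception, at 0.17 (adjusted p = 0.403). Among the constitutive catalytic subunits, Psmb5, which carries the chymotrypsin-like activity, was at 5.0, 8.9, 6.6, 6.1 and 9.3 CPM in sham 1 to 5 and at 22.5, 30.8, 10.9 and 32.3 in RYGB 1 to 4. The groups did not overlap, and RYGB 3 was again closest to sham. The mean went from 7.18 ± 1.85 CPM (SD, n = 5) to 24.1 ± 9.81 (n = 4), a difference of 1.54 ± 0.30 in log2(CPM + 1) (SE, adjusted p = 0.00304). Psmb7, which carries the trypsin-like activity, was at 61.1 to 66.9 CPM in the sham libraries and at 128.0, 138.8, 79.1 and 123.0 in RYGB (0.83 ± 0.16, adjusted p = 0.00287). Psmb6, the caspase-like subunit, was at 37.0 to 46.3 CPM in sham and at 66.3, 118.2, 47.6 and 88.4 in RYGB (0.91 ± 0.23, adjusted p = 0.00929). For both, every RYGB library exceeded every sham library.

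All 3 immunoproteasome subunits rose in WAT as well. Psmb8, which replaces Psmb5, was at 38.0, 45.4, 35.4, 35.3 and 49.4 CPM in sham 1 to 5 and at 110.4, 164.6, 76.8 and 105.3 in RYGB 1 to 4. Its mean was 2.81-fold that of sham, a difference of 1.43 ± 0.21 (SE, adjusted p = 0.000671). Psmb9, which replaces Psmb6, was at 11.6 to 20.4 CPM in sham and at 28.9, 33.5, 25.1 and 35.9 in RYGB (0.94 ± 0.18, adjusted p = 0.00275). Psmb10, which replaces Psmb7, was at 17.7 to 26.5 CPM in sham and at 38.4, 41.0, 26.7 and 43.6 in RYGB (0.82 ± 0.17, adjusted p = 0.00442). The groups did not overlap for any of the 3, although RYGB 3 of Psmb10 lay within 1 CPM of sham 5.

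**Figure D3:**
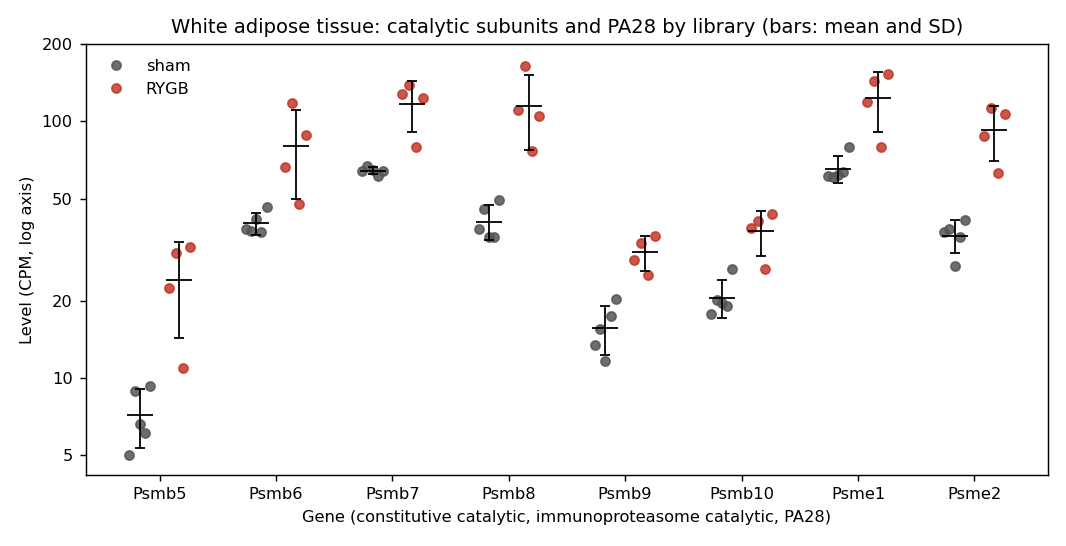
CPM (vertical log axis) of the constitutive catalytic subunits, the immunoproteasome subunits and the PA28 genes in each WAT library, sham in grey and RYGB in red; bars give the mean and SD. Every RYGB library lies above every sham library for the 8 genes, and the lowest RYGB point of each is RYGB 3.

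Of the other core genes in WAT, the 4 structural beta subunits and 6 of the 7 alpha subunits rose. Psma1, an alpha subunit, was at 123.3, 126.0, 135.9, 132.1 and 136.6 CPM in sham 1 to 5 and at 299.1, 414.2, 203.5 and 264.5 in RYGB 1 to 4 (1.12 ± 0.18, adjusted p = 0.00122). Psma4, another, was at 53.4 to 58.1 CPM in sham and at 96.2, 116.0, 77.1 and 110.6 in RYGB (0.82 ± 0.14, adjusted p = 0.00134). Neither gene overlapped between the groups. The differences of the other alpha and structural beta genes that rose were 1.17 for Psma5, 1.09 for Psma6, 0.90 for Psmb4, 0.89 for Psma7, 0.88 for Psmb3, 0.84 for Psmb2, 0.68 for Psma2 and 0.58 for Psmb1. Psma6 and Psma7 overlapped between groups because RYGB 3 was at 124.4 and 59.9 CPM, inside the sham range.

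The 19S regulator rose less evenly. Of its 17 members 9 rose, with a median difference of 0.45, and the other 8 lay between -0.12 and 0.28. The base genes that rose were the ATPases Psmc2 (0.53), Psmc4 (0.72) and Psmc5 (0.84) and the ubiquitin receptor Psmd4, which was at 68.6 to 96.1 CPM in sham and at 143.2, 232.5, 89.4 and 163.0 in RYGB (0.94 ± 0.23, adjusted p = 0.00973). Its RYGB 3 value lay below that of sham 5, and Psmc2, Psmc4 and Psmc5 also overlapped between the groups. The lid genes that rose were Psmd6 (0.65), Psmd11 (0.45), Psmd12 (0.52), Psmd13 (0.46) and Psmd14. Psmd11, Psmd12 and Psmd13 overlapped between the groups, and Psmd6 did not. Psmd14, the deubiquitinase that removes ubiquitin chains, was at 94.3 to 111.1 CPM in sham and at 210.1, 174.5, 116.5 and 161.3 in RYGB (0.66 ± 0.16, adjusted p = 0.00919), with no overlap. The ATPase Psmc6 differed by -0.02 (adjusted p = 0.900) and the lid gene Psmd8 by -0.12 (adjusted p = 0.66). Both these genes overlapped between the groups.

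The caps split in WAT. Psme2, which forms PA28 with Psme1, was at 37.2, 38.1, 27.3, 35.3 and 41.3 CPM in sham 1 to 5 and at 87.7, 112.8, 62.7 and 106.3 in RYGB 1 to 4. The groups stood far apart, and the difference of 1.32 ± 0.19 had the smallest adjusted p of all members (0.000644). Psme1 was at 60.8 to 79.3 CPM in sham and at 119.3, 143.6, 79.6 and 152.2 in RYGB (0.87 ± 0.19, adjusted p = 0.00474). Psme2b, a close copy of Psme2, rose by 0.79 ± 0.28 (adjusted p = 0.0448) with overlapping groups. Psme3, whose cap is found in the nucleus, differed by -0.13 ± 0.12 (adjusted p = 0.416). Psme4, which encodes PA200, was at 292.1, 239.5, 263.7, 273.9 and 173.4 CPM in sham and at 186.9, 183.1, 205.8 and 181.7 in RYGB (-0.37 ± 0.16, adjusted p = 0.0872). Sham 5 of Psme4 lay below all RYGB values and the other 4 sham libraries above them. The proteasome inhibitor gene Psmf1 differed by -0.26 ± 0.13 (adjusted p = 0.135).

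The assembly chaperones also split. For the core, Psmg1 was at 15.3 to 20.6 CPM in sham and at 24.3, 38.6, 24.6 and 31.4 in RYGB (0.76 ± 0.17, adjusted p = 0.00544), with no overlap, and Psmg2 rose by 0.57 ± 0.20 (adjusted p = 0.0404). Psmg3 and Psmg4 differed by 0.55 and 0.53 without passing the test (adjusted p = 0.0799 and 0.0742). Of the 19S chaperones, Psmd10 rose by 0.55 ± 0.17 (adjusted p = 0.0278), whereas Psmd5 and Psmd9 differed by -0.12 and 0.19. Pomp, the maturation factor of the core, is no member by its symbol; it was at 28.0 to 33.0 CPM in sham and at 55.3, 107.8, 43.9 and 80.9 in RYGB (1.12 ± 0.23, adjusted p = 0.00354). Its RYGB values stood above all sham values, in the same order of libraries as those of Psma1 except that RYGB 4 exceeded RYGB 1.

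**Figure D4:**
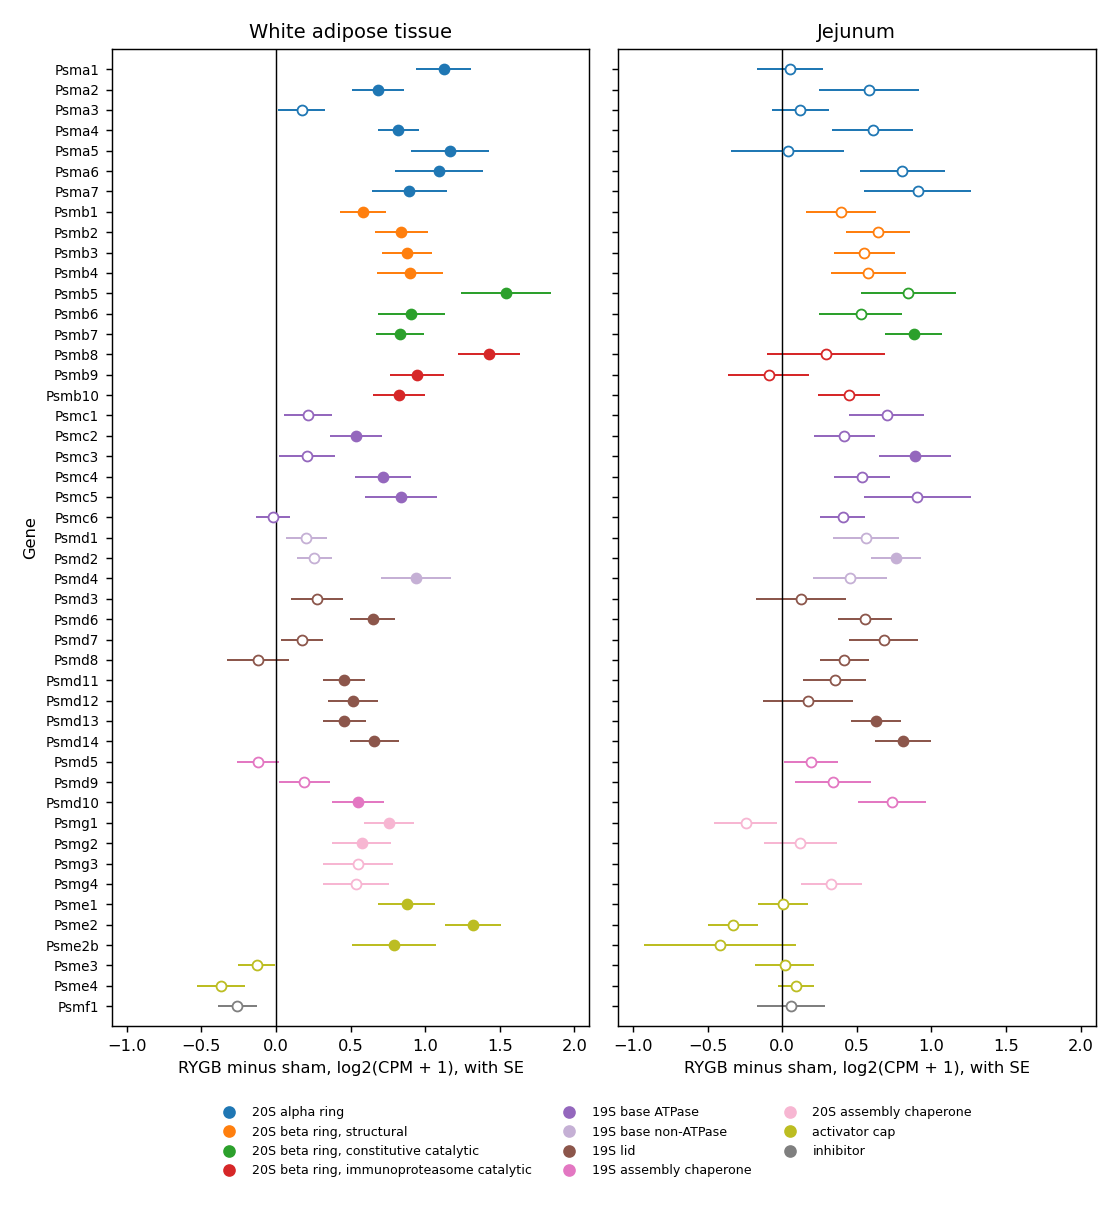
Difference between RYGB and sham in log2(CPM + 1), with its SE, for each proteasome gene (rows, coloured by role) in WAT and jejunum; filled points have an adjusted p below 0.05. In WAT 16 of the 17 core points are filled and 9 of the 17 of the 19S regulator, and in jejunum Psme1 lies at 0.01 and Psme2 at -0.33.

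Without RYGB 3 and 4, the libraries rich in leukocyte transcripts, only RYGB 1 and 2 remained. In that fit 33 members rose and 0 fell, where 15.7% of all genes rose and 43.2% fell, and 28 of the 33 were among the 31. RYGB 3 was also the RYGB library closest to sham, and without it alone 35 members rose, where 16.8% of all genes did. Leukocyte content and the low proteasome level of RYGB 3 cannot be told apart by these counts. Summed leukocyte markers (23 of 25 measured) ranged from 1150.8 to 2160.8 CPM in sham and from 619.3 to 4315.3 in RYGB. Over all libraries 2 of the 23 rose and 2 fell, where 14.3% of all WAT genes rose and 26.3% fell. Ptprc was at 24.6 and 17.9 CPM in RYGB 1 and 2, below every sham library. Summed adipocyte markers ranged from 25317.3 to 29082.5 CPM in sham and from 25595.5 to 64978.3 in RYGB. Of the 10 adipocyte markers 2 rose and 2 fell, and 5 lay above 0, with a median difference of -0.02. Of the 9 measured markers listed for liver cells 2 rose and 3 fell, with a median difference of -0.47. Those that rose were Pck1 and Cyp2e1, which fat also expresses. Albumin (Alb) was at 62.7 to 272.6 CPM in sham and 54.1 to 65.6 in RYGB. The part of changing cell numbers in the rise was not tested. Scaling by the median of ratios moved the median difference of all WAT genes from -0.16 to 0.00 and that of the members from 0.65 to 0.83; it called 34 members higher and 0 lower, where 21.1% of all genes were higher and 20.4% lower. The members that rose were short, with a median of 2300 exon bases against 3696 in the other members and 4564 in all WAT genes. With each library's trend against exon length removed, 25 rose and 0 fell, where 19.2% of all genes rose and 18.8% fell; Psma6, Psmb2, Psmc5, Psmd10, Psmd12, Psme2b and Psmg2 no longer passed.

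Lists of related genes in WAT, chosen with earlier results of these data known, are given beside the 14.3% of all WAT genes that rose and the 26.3% that fell; differences between lists were not tested. Of 17 measured genes of MHC class I presentation, 7 rose and 0 fell, with a median difference of 0.35. Tap1, which carries peptides made by the proteasome into the endoplasmic reticulum, was at 37.0, 56.5, 28.1, 57.1 and 46.0 CPM in sham and at 68.7, 67.4, 75.2 and 87.9 in RYGB (0.76 ± 0.21, adjusted p = 0.0144). The MHC heavy chain H2-K1 rose by 1.07 ± 0.17 (adjusted p = 0.00123). Of 16 regulators of proteasome transcription and protein extraction, 1 rose and 4 fell: the extraction ATPase Vcp rose by 0.43 ± 0.13 (adjusted p = 0.0231), and Mafk, a small Maf partner of Nfe2l1, fell by 2.14 (adjusted p = 0.000102). Nfe2l1 itself was at 309.7 to 363.8 CPM in sham and at 319.9, 270.3, 241.0 and 274.4 in RYGB (-0.30 ± 0.13, adjusted p = 0.0819), with 1 RYGB library inside the sham range. Of 11 ubiquitin ligases and regulators known from muscle wasting, 1 rose and 9 fell, among them Fbxo30 (-0.89 ± 0.12, adjusted p = 0.000439) and Fbxo32 (-0.61 ± 0.17, adjusted p = 0.0169). Of 17 proteasome partners 4 rose and 2 fell, of 21 ubiquitin genes 4 rose and 2 fell, and of 19 genes of autophagy and lysosome 2 rose and 1 fell.

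Promoters were compared because so many members rose together. RefSeq windows of 300 bases (250 before and 50 after the gene's start, build GRCm38.p6) were used for 40 members, and motifs were searched on both strands. The antioxidant response element core TGACNNNGC, which Nfe2l1 and Nfe2l2 bind, was in the windows of 6 of the 40 (Psmb5, Psmb6, Psmc6, Psmd9, Psmd12 and Psme4), or 15%, against 12.4% of all 32851 windows. The core of the interferon-stimulated response element, GAAA and GAAA with 2 bases of any kind between, was in 5 (Psmb3, Psmd4, Psmd9, Psme1 and Psmg4), or 12.5% against 3.44%. The gamma-activated site TTCNNNGAA was in 3 (Psmb8, Psmd2 and Psmg1), or 7.5% against 8.3%. The CCAAT box was in 32.5% of member windows and 37.4% of all, and the GC box GGGCGG in 57.5% and 35.7%. Of the 27 members with a window that rose in WAT, 3 held TGACNNNGC, 3 the interferon element and 2 TTCNNNGAA; of the 13 that did not rise, 3, 2 and 1 did. Members had a single window per gene, whereas the 32851 windows were not reduced in this way, so the shares compare unlike units. These are letter matches in short windows, not binding sites. The 250 bases before the RefSeq start are shown for 4 genes that rose in WAT, each written 5′ to 3′ along the gene's strand with the match in capitals. They are Psmb5 (chr14:54617996-54618245, minus strand) and Psmb6 (chr11:70525107-70525356, plus strand) with TGACNNNGC, Psmd4 (chr3:95042615-95042864, minus strand) with the interferon element on the opposite strand, and Psmb8 (chr17:34197945-34198194, plus strand) with TTCNNNGAA. In the GENCODE annotation Psmb8 starts at 34197721, so its stretch and match lie inside the gene, after that start.
Psmb5: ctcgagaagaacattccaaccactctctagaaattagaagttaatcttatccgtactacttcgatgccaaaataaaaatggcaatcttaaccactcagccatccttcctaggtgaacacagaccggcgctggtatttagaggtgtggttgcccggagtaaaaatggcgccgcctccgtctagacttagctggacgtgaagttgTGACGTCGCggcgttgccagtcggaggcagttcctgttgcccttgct
Psmb6: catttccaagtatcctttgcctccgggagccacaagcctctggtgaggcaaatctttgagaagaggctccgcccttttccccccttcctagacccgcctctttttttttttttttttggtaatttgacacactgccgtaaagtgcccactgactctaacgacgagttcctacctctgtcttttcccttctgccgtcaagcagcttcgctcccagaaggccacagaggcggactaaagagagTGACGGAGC
Psmd4: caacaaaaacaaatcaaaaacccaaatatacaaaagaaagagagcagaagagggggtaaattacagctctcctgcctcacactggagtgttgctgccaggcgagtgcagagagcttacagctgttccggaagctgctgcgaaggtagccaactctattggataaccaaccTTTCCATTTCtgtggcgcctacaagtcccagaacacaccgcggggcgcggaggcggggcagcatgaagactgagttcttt
Psmb8: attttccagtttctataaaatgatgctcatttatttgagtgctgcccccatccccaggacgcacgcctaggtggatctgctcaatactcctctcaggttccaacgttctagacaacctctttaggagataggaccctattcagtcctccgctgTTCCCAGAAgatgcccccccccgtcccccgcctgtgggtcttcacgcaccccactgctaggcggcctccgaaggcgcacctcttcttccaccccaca

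Sequence shared with other genes bears on some members. Of the 50-base stretches of the Psmb5 transcripts, 54.1% also occur in transcripts of other genes, mainly the pseudogene Gm3375. The shares were 54.9% for Psme2 (with Psme2b), 69.3% for Psme2b, 55.8% for Psmb3, 54.5% for Psma5 and 25.6% for Psmd2, and 0% for Psmb8 and Psmb9. The sources used here do not say how reads with several matches were counted, so the levels of those 6 genes are uncertain; the other members shared at most 22.0%. Psmb9 overlaps Tap1 on the opposite strand over 5.79% of its exon bases, and Psmb8 overlaps the antisense gene Gm20496 over 14.7%; whether counting used the strand is likewise not given.

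In jejunum the 5 genes that rose were 1 catalytic beta subunit and 4 of the 19S regulator. Psmb7 was at 18.5, 20.2, 25.5, 19.4 and 21.4 CPM in sham 1 to 5 and at 39.0, 27.5, 51.1 and 43.2 in RYGB 1 to 4 (0.88 ± 0.19, adjusted p = 0.0183). Psmd2, a scaffold of the 19S base, was at 33.6 to 48.0 CPM in sham and at 72.5, 57.1, 89.8 and 61.4 in RYGB (0.76 ± 0.17, adjusted p = 0.0192). Psmd14 was at 44.1 to 57.8 CPM in sham and at 116.5, 67.1, 117.6 and 80.6 in RYGB (0.81 ± 0.19, adjusted p = 0.0224). In each of these genes every RYGB library exceeded every sham library, and RYGB 2 was the lowest of its group. The lid gene Psmd13 rose by 0.63 ± 0.17 (adjusted p = 0.0352). The ATPase Psmc3 was at 19.7 to 31.2 CPM in sham and at 55.5, 31.5, 76.4 and 52.8 in RYGB (0.89 ± 0.24, adjusted p = 0.0359), with RYGB 2 only just above sham.

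The other jejunal members mostly lay above 0 without passing the test. Of the 46, 42 (91.3%) had a positive difference, where 56.8% of all jejunal genes did. The members' median was 0.43 against 0.08 over all jejunal genes. An unadjusted p below 0.05 was found in 21 members, and in 30.5% of all genes. All 17 members of the 19S regulator lay above 0 (median 0.55), as did 16 of the 17 core genes (median 0.55). The caps lay nearer to 0 or below it: Psme1 differed by 0.01, Psme3 by 0.02, Psme4 by 0.09, Psme2 by -0.33 and Psme2b by -0.42. The immunoproteasome genes Psmb8, Psmb9 and Psmb10 differed by 0.29, -0.09 and 0.45 (adjusted p = 0.657, 0.85 and 0.174). The constitutive catalytic genes Psmb5 and Psmb6 differed by 0.85 and 0.52 (adjusted p = 0.1 and 0.229). Of the chaperones, Psmd10 differed by 0.74 (adjusted p = 0.0573), Psmg4 by 0.33, Psmd9 by 0.34, Psmd5 by 0.19, Psmg2 by 0.12 and Psmg1 by -0.25. Psmb8 was at 63.8, 27.4, 82.0 and 72.4 CPM in RYGB 1 to 4 and at 62.1, 56.8, 19.6, 57.0 and 52.8 in sham 1 to 5, so that 1 low library stood in each group.

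The jejunal calls turned on single libraries. Without RYGB 2, 22 members rose and 0 fell, where 9.79% of all genes rose and 5.82% fell; without sham 2, or without RYGB 3, 0 rose. The count was 1 without sham 1 or sham 4, 2 without sham 3 or RYGB 1, 3 without sham 5 and 6 without RYGB 4. Among related genes, Nfe2l2, the regulator of antioxidant genes, was at 1052.5, 901.4, 762.4, 649.6 and 710.7 CPM in sham and at 430.5, 424.0, 260.3 and 557.9 in RYGB, and fell by 0.99 on the log2 scale (SE 0.23, adjusted p = 0.0220). Nfe2l1 was at 41.6 to 51.4 CPM in sham and at 54.2, 68.4, 76.6 and 59.2 in RYGB (0.44 ± 0.15, adjusted p = 0.0689). For both, the groups did not overlap. Of 17 genes of MHC class I presentation 0 rose and 2 fell, where 6.32% of all genes rose and 6.29% fell. Tap1 fell by 0.77 (adjusted p = 0.0425) and its partner Tapbp by 0.81 (adjusted p = 0.0254). Pomp was at 8.1 to 29.1 CPM in sham and at 79.3, 29.4, 76.5 and 33.3 in RYGB (1.23 ± 0.42, adjusted p = 0.0786). Summed markers of proliferating crypt cells ranged from 36.3 to 79.5 CPM in sham and from 57.1 to 282.5 in RYGB; their part in these differences was not tested.

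In liver the median difference was the largest of the 6 tissues, and no member passed the test over all libraries. Their median was 0.95 over 45 members, against 0.26 over all liver genes. Psme1 was at 20.2, 12.1, 0.6 and 1.4 CPM in sham 1 to 4 and at 11.1, 63.2, 86.8, 74.6 and 31.2 in RYGB 1 to 5 (2.95 ± 0.79, adjusted p = 0.0513). Psmc2, a base ATPase, was at 22.9, 15.4, 4.3 and 12.5 CPM in sham and at 18.3, 49.7, 117.7, 59.1 and 33.4 in RYGB (1.87 ± 0.54, adjusted p = 0.0572). Psma6 was at 88.7, 68.6, 14.3 and 35.6 CPM in sham and at 65.5, 177.9, 231.9, 178.5 and 114.5 in RYGB (1.71 ± 0.51, adjusted p = 0.0612). In all 3 genes sham 3 and 4 were the lowest sham libraries, and RYGB 1, below sham 1, made the groups overlap. Psmf1 alone of the members had every RYGB library above every sham library, at 6.6 to 17.5 CPM in sham and 18.4 to 42.6 in RYGB.

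These levels moved with the step size of the liver libraries. Sham 1 and 2 and RYGB 2, 3 and 4, the coarsely stepped libraries, held the higher values of each group for these 3 genes, and sham 3 and 4 and RYGB 1 and 5 the lower ones. The groups were therefore compared within each class, a choice made after seeing the data. With the class as a term, 15 of 45 members passed the test as higher in RYGB and 0 as lower, where 14.3% of all liver genes passed as higher and 8.82% as lower. With no such term, 15 members passed as higher and 0 as lower without RYGB 1 (13.4% and 8.5% of all genes), and 12 and 0 without sham 1 (8.42% and 4.39%); 2 passed as higher without RYGB 5. In the 4 finely stepped libraries alone 7 passed (5.98% of all genes), and in the 5 coarsely stepped ones 6 (4.72%); 0 passed as lower in either, where 1% and 4.74% of all genes did. Psme1 differed by 2.70 ± 0.38 with the class as a term (adjusted p = 0.00137), Psmd2 by 2.26 ± 0.40 (adjusted p = 0.00346), Psma6 by 1.57 ± 0.31 (adjusted p = 0.00609), Psme2 by 2.31 ± 0.48 (adjusted p = 0.00694) and Psmd13 by 2.14 ± 0.45 (adjusted p = 0.00748). Of these 5 genes 1, Psme1, also passed within each class alone. Psme2 was at 4.6, 0.9, 0.0 and 0.1 CPM in sham 1 to 4. In RYGB 1 to 5 it was at 1.5, 26.3, 41.5, 26.1 and 1.2 CPM. It met the filter of 1 CPM mainly through its RYGB libraries, so its call, counted among the 15, was not free of that filter.

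**Figure D5:**
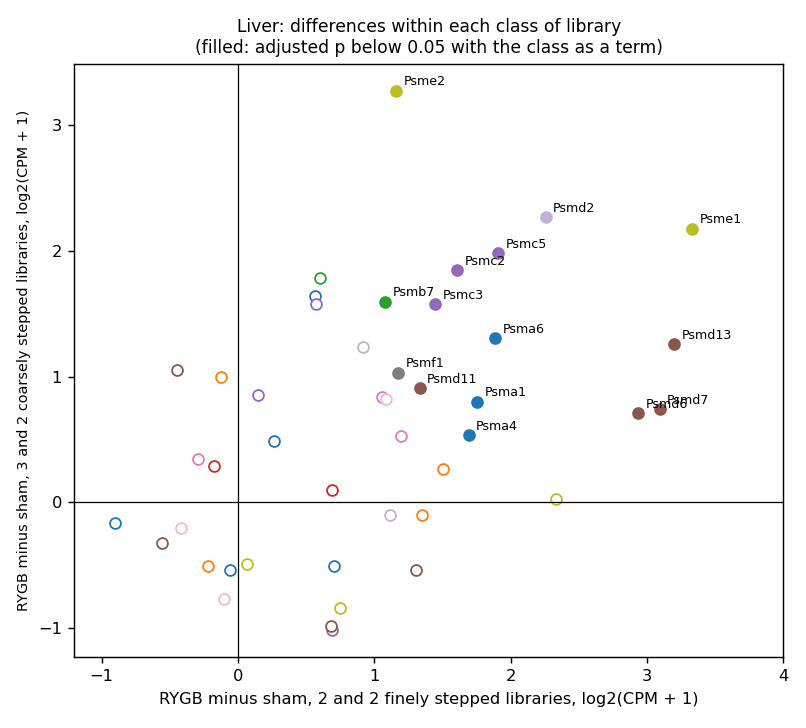
Difference between RYGB and sham in log2(CPM + 1) for each of 45 proteasome genes in liver, within the 4 finely stepped libraries (horizontal axis) and within the 5 coarsely stepped ones (vertical axis). The 15 filled points, which passed the test with the class as a term, all lie above 0 on both axes.

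Not every liver member lay above 0. Of the 45, 35 (77.8%) had a positive difference, where 60.4% of all liver genes did. The lowest members were Psmd8 (-0.50, adjusted p = 0.364), Psma8 (-0.49, adjusted p = 0.448) and Psmg4 (-0.46, adjusted p = 0.365). The 19S genes had a median of 1.20 and the core genes one of 0.55. The catalytic genes Psmb6 and Psmb7 differed by 1.42 and 1.49 (adjusted p = 0.164 and 0.0928), and the immunoproteasome genes Psmb9 and Psmb10 by 0.13 and 0.40 (adjusted p = 0.834 and 0.553). Of the caps and chaperones, Psme3 differed by 1.12, Psmg1 by 1.06, Psmd9 by 1.02 and Psmd5 by 0.95, whereas Psmd10, Psme4, Psme2b and Psmg2 differed by 0.05, -0.12, -0.24 and -0.39. Summed leukocyte markers (10 of 25 measured) ranged from 66.3 to 227.3 CPM in sham and from 103.8 to 982.3 in RYGB. Of the 10, 2 rose and 0 fell, where 2.03% of all liver genes rose and 2.6% fell. Summed hepatocyte markers ranged from 61031.8 to 72700.4 CPM in sham and from 68892.0 to 135692.6 in RYGB. Their part in these differences was not tested. Of 17 measured genes of MHC class I presentation 1 rose and 0 fell. The 1 that rose was the chaperone Calr (2.76 ± 0.64, adjusted p = 0.0424), whereas Nfe2l2 fell by 1.1 (adjusted p = 0.0497). Nfe2l1 differed by 0.60 ± 0.42 (adjusted p = 0.315).

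In duodenum, the bypassed segment, 36 of 46 members (78.3%) had a positive difference, where 63.6% of all genes did. The members' median was 0.24 against 0.15 over all genes. The smallest adjusted p was that of Psme3, at 83.3, 69.5, 67.5, 73.4 and 76.4 CPM in sham 1 to 5 and at 154.5, 105.6, 88.1 and 149.5 in RYGB 1 to 4 (0.71 ± 0.20, adjusted p = 0.0878). It was the 1 member in which every RYGB library stood above every sham library, as in 5.88% of all duodenal genes. The next members by p were the ATPase Psmc6 (0.44 ± 0.17, adjusted p = 0.165) and the chaperone Psmd5 (0.50 ± 0.20, adjusted p = 0.166). The 3 immunoproteasome genes lay below 0, with Psmb8 at 88.6 ± 42.0 CPM in sham (SD, n = 5) and 53.8 ± 25.3 in RYGB (n = 4), a difference of -0.67 ± 0.37 (adjusted p = 0.303). The other caps differed by 0.27 (Psme1), 0.33 (Psme2), 0.38 (Psme4) and 0.50 (Psme2b), and the core chaperones by 0.73 (Psmg1), 0.43 (Psmg2) and 0.37 (Psmg4). Summed crypt markers did not overlap between the groups, at 29.5 to 45.3 CPM in sham and 49.2 to 743.3 in RYGB; their part was not tested.

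In ileum, where RYGB had 2 libraries, 34 of 47 members (72.3%) had a positive difference, where 42.4% of all ileal genes did. The median was 0.08 against -0.09 over all ileal genes, and the smallest adjusted p was 1.0. The 3 members with the smallest p were Psme2, Psma1 and Psme3, with differences of 0.77, 0.77 and 0.49. Psme2 was at 68.2, 82.9, 58.5, 60.2 and 58.1 CPM in sham 1 to 5 and at 73.4 and 168.4 in RYGB 1 and 2, so the difference of its groups lay in 1 library. All 5 cap genes lay above 0, from 0.27 to 0.77. The catalytic genes Psmb5, Psmb6 and Psmb7 differed by -0.12, 0.12 and 0.06, and the chaperones lay between -0.28 (Psmg3) and 0.35 (Psmg1). Psmb8 was at 45.0 ± 17.1 CPM in sham (SD, n = 5) and 45.3 ± 24.0 in RYGB (n = 2). The summed member level of sham 4 was 3483.3 CPM, against 1767.4 to 2097.2 in the other sham libraries. Summed crypt markers ranged from 28.1 to 4409.5 CPM in sham and from 130.8 to 420.9 in RYGB. Their part was not tested.

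Muscle was the 1 tissue whose members mostly lay below 0. Of 47 members 8 (17.0%) had a positive difference, where 49.5% of all muscle genes did, and the median was -0.13. The alpha subunit Psma2 was at 36.0, 27.3, 29.3 and 29.0 CPM in sham 1 to 4 and at 23.5, 27.0, 20.6 and 18.3 in RYGB 1 to 4 (-0.43 ± 0.18, adjusted p = 0.673). The ATPase Psmc1 was at 101.0, 89.7, 119.1 and 96.9 CPM in sham and at 75.6, 76.1, 50.6 and 89.3 in RYGB (-0.50 ± 0.20, adjusted p = 0.682). In both genes, and in Psmd10, every RYGB library lay below every sham library, as in 1.96% of all muscle genes. Psmd4 had the next smallest p (-0.51 ± 0.24, adjusted p = 0.717). All 17 members of the 19S regulator and 15 of the 17 core genes lay below 0, whereas Psmg1, Psmg4 and Psme2 differed by 0.39, 0.39 and 0.37 (adjusted p = 0.719, 0.758 and 0.749). The catalytic genes Psmb5, Psmb6 and Psmb7 differed by -0.32, -0.20 and -0.11, and Psmb8, Psmb9 and Psmb10 by 0.07, -0.03 and 0.08.

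The muscle library RYGB 2, highest in summed proteasome transcripts, was also highest in the ubiquitin ligases of muscle wasting. Trim63, which marks myofibre proteins for degradation, was at 842.8, 1092.7, 1077.3 and 1427.9 CPM in sham 1 to 4 and at 450.6, 9038.3, 499.2 and 567.3 in RYGB 1 to 4. Fbxo32 was at 2552.1, 2550.2, 2636.7 and 3458.2 CPM in sham and at 740.8, 5779.7, 873.1 and 1002.4 in RYGB. For both ligases 3 RYGB libraries lay below every sham library and 1 above, and neither passed the test (adjusted p = 0.996 and 0.761). Among the members, Psme4 was also highest in RYGB 2, at 830.6 to 1214.7 CPM in sham and at 702.1, 1358.8, 739.2 and 605.1 in RYGB.

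Whether the response differed between tissues was tested on the differences between tissues within each animal. Less and more below mean a lower or higher signed RYGB difference, whatever its direction in each tissue. Taken in each tissue over all its libraries, Psmf1 differed by -0.26 in WAT and 1.18 in liver. Psme2 differed by -0.33 in jejunum and 0.37 in muscle, and none of these differences was called. Between jejunum and WAT (5 sham and 3 RYGB animals with both), 6 of 46 members responded less in jejunum and 0 more, where 10.3% of all genes responded less and 19.2% more. They were Psme2 (a difference of -1.93 ± 0.28, adjusted p = 0.000982), Psme1 (-1.19 ± 0.23, adjusted p = 0.00413), Psmg1 (-1.23 ± 0.25, adjusted p = 0.00508), Psmb9 (-1.21 ± 0.29, adjusted p = 0.0106), Psma1 (-1.28 ± 0.32, adjusted p = 0.0121) and Psmb8 (-1.42 ± 0.49, adjusted p = 0.0493). Between jejunum and muscle (4 and 3 animals), Psmb7 (1.19 ± 0.27, adjusted p = 0.0257) and Psmb5 (1.44 ± 0.35, adjusted p = 0.0322) responded more in jejunum and Psme2 less (-0.90 ± 0.24, adjusted p = 0.0466), where 4.64% and 5.45% of all genes did. That count depended on single animals: it was 24 more in jejunum without the animal of the RYGB 2 libraries, and 0 without any of 5 others. Between WAT and liver (4 and 4), Psmf1 responded less in WAT (-1.54 ± 0.47, adjusted p = 0.0461), 1 of 44 members against 9.25% of all genes, and 0 responded more, against 3.57%. Median-of-ratios scaling turned this to 0 less and 2 more, a pseudocount of 0.1 gave 0 less, and leaving out single animals gave 0 to 7 less and 0 to 4 more. Between jejunum and duodenum limma called 0 of 46 members (3 at an unadjusted p below 0.05, as 20.3% of all genes), where 0.197% of all genes responded more in jejunum and 0.75% less. Between jejunum and liver it called 0 of 44 (8 at an unadjusted p below 0.05, as 18.1% of all genes), where 0.0449% responded more and 0.0561% less.

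The balance of immunoproteasome and constitutive subunits was compared as the ratio of CPM within each library, for 3 pairs in 5 tissues; in liver Psmb5 and Psmb8 were not in the table, and Psmb9 and Psmb10 were each listed at 0 in 1 library. In WAT, where all 6 genes rose, the ratio of Psmb8 to Psmb5 was 5.10 to 7.60 in sham and 3.26 to 7.05 in RYGB, that of Psmb9 to Psmb6 was 0.279 to 0.473 and 0.283 to 0.527, and that of Psmb10 to Psmb7 was 0.277 to 0.413 and 0.295 to 0.355. The groups overlapped for each pair. In duodenum the ratio of Psmb9 to Psmb6 was 0.572 to 0.941 in sham and 0.402 to 0.575 in RYGB, a difference of -0.62 in log2 (exact permutation test, two-sided, p = 0.0317, adjusted over 15 ratios p = 0.318). In jejunum the same ratio was 0.504 to 0.975 in sham and 0.314 to 0.606 in RYGB (-0.64, exact p = 0.0635, adjusted p = 0.318). No ratio of the 15 passed after adjustment; the smallest p that 5 against 4 libraries allow is 0.0159, that for 4 against 4 is 0.0286 and that for 5 against 2 is 0.0952.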

How the data were processed

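The authors deposited 1 table per tissue of CPM values with 1 decimal, made from reads counted per gene with HTSeq (version not given) on GRCm38, per the submitters' processing notes. The sources used here do not give the aligner, annotation release, strand setting or treatment of reads with several matches. The CPM of the deposited genes sum to 978879.0 to 993560.1 per library, so the read depth is unknown. Repeated lines (339 in ileum, 374 in WAT) were dropped, and 2 ileum and 6 liver lines without a gene identifier were left out. No pair of libraries held identical values.

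Each tissue was fitted on its own with limma 3.58.1 in R 4.3.3 (empirical Bayes with trend and robust settings) on log2(CPM + 1), with a pseudocount of 1, Benjamini-Hochberg adjustment across the whole table and a threshold of 0.05. The fit was tested on simulated data. Its p-values set the difference between the operations against the spread between animals of the same operation, moderated over all genes. Differences between tissues were fitted with limma on within-animal differences, for animals with both tissues. Ratios were tested by exact two-sided permutation in Python 3.11.15 with scipy 1.17.1. Exon lengths came from GENCODE annotation of GRCm38, and promoter sequences from RefSeq.

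The members and the gene lists were chosen with earlier results of these data known. Values are given for members that passed in any tissue or tissue difference, for catalytic subunits, caps and chaperones, and for the 3 smallest p where a tissue had no call. Up to 6 genes per related list were named by the smallest adjusted p, and Nfe2l1, Nfe2l2, Pomp, Tap1, Fbxo32 and Trim63 whatever theirs. Alternatives were median-of-ratios scaling, a pseudocount of 0.1, a mean of at least 5 CPM, sample weights, leaving out each library, and a replicate block. The exon-length trend, the liver step classes and the WAT fit without leukocyte-rich libraries were added after seeing the data; those libraries were chosen by a marker that is not reported here.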

Additional observations from a re-analysis of the deposited data

Results flagged for a closer look

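In 11 of 110 groups of 4 or 5 libraries checked, 1 library stood far from the others. For a single group chance gives about 1 in 20, but the groups share libraries and are not independent. In WAT, sham 5 stood above the other sham libraries in 5 of the 11. Its level was 26.5 CPM for Psmb10 (others 17.7 to 20.1), 79.3 for Psme1 (60.8 to 63.6), 20.6 for the chaperone Psmg1 (15.3 to 16.8) and 98.2 for the lid gene Psmd11 (73.4 to 80.3), and its ratio of Psmb10 to Psmb7 was 0.4134 (0.2766 to 0.311). Also in WAT, Psmd11 was at 88.3 CPM in RYGB 3 (115.5 to 120.3 in the other RYGB libraries), and the ratio of Psmb8 to Psmb5 was 7.6 in sham 1 (5.101 to 5.787). In ileum, the summed proteasome level of sham 4 was 3483.3 CPM (1767.4 to 2097.2), and the ratio of Psmb9 to Psmb6 in sham 5 was 0.5165 (0.2532 to 0.3127). The ratio of Psmb10 to Psmb7 was 1.967 in jejunum RYGB 1 (1.64 to 1.679) and 0.04835 in muscle sham 1 (0.02609 to 0.02882).

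The response to RYGB differed between tissues, by limma on the within-animal differences, for 10 values. In jejunum less WAT these were -1.93 for Psme2, -1.42 for Psmb8, -1.28 for Psma1, -1.23 for Psmg1, -1.21 for Psmb9 and -1.19 for Psme1. In jejunum less muscle they were 1.44 for Psmb5, 1.19 for Psmb7 and -0.90 for Psme2, and in WAT less liver -1.54 for Psmf1. The 6 of 46 members called lower in jejunum less WAT stand beside 10.3% of all genes. In jejunum less muscle 2 of 46 were higher and 1 lower, beside 4.64% and 5.45%. In WAT less liver 1 of 44 was lower, beside 9.25%. The counts against muscle and liver changed when single animals were left out.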

How the results depend on the processing

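Of the counts and ratios that answer a comparison, 396 values under the alternatives stayed within 1.5 times the reported count or within its spread and 52 moved. Of the values of single genes, 585 kept their call and direction and 127 kept the direction but no longer passed. Of the members' median differences 144 values moved by less than the spread and 8 by more; that of jejunum less WAT turned from -0.27 to 0.08 without the animal of the RYGB 2 libraries. The causes were not tested unless fewer libraries entered.

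In WAT the 31 members that rose became 24 to 35 when each library was left out in turn and 26 with the replicate block; the count that fell was 0 to 1 and 1. In all the settings run, 21 of the 31 passed. In jejunum the 5 that rose became 10 with sample weights, 0 with the replicate block and 0 to 22 when each library was left out. In duodenum the 0 that rose became 6 with sample weights and 0 to 1 when each was left out. In liver the 0 that rose became 5 with median-of-ratios scaling, 1 with a mean of at least 5 CPM, 14 with sample weights, 2 with the exon-length trend removed, 15 with the step class as a term, 7 and 6 within the finely and coarsely stepped libraries, and 0 to 15 when each was left out.

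Between tissues, leaving out each animal gave 0 to 1 higher in jejunum than WAT, 0 to 24 higher and 0 to 1 lower in jejunum than muscle, and 0 to 4 higher and 0 to 7 lower in WAT than liver. Median-of-ratios scaling gave 6 higher in jejunum than muscle, and 2 higher and 0 lower in WAT than liver. A pseudocount of 0.1 gave 0 lower in both.

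Replicate numbers name different animals: libraries of the same number correlated from -0.35 to 0.56, and in no tissue did every pair exceed 0.1, so the block pairs by number alone. The median difference of all genes with CPM less that with scaling was 0.16 in duodenum, 0.07 in jejunum, -0.10 in ileum, 0.18 in liver and -0.17 in WAT. Unknown depth and 1-decimal values limit genes near 1 CPM, such as Psmb9 in liver and muscle, and the ileum had 2 RYGB libraries.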
